A study of Mus musculus with 8 samples.

Results

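Microglia, the resident macrophages of the brain, and border macrophages, which live in the meninges and around blood vessels, were followed through the transcripts of 31 genes among the 55890 genes counted in mouse hypothalamus. The 31 genes were chosen as a list of known markers, when earlier results of these data had been seen. They were matched by symbol to 1 Ensembl identifier each. They comprise 10 genes of homeostatic microglia, 8 genes of the myeloid lineage, 9 genes of phagocytosis and complement and 4 border macrophage markers, and all 31 passed the filter on low counts.

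The data are RNA-seq of hypothalamus from female mice aged 16 weeks, with 4 libraries per genotype and the RNA of 2 animals pooled in each library. POMC-C451Af/f mice carry a POMC-Cre transgene and floxed C451Af/f alleles of Esr1, so that the palmitoylation site needed for membrane-initiated signaling of estrogen receptor alpha is mutated where the Pomc promoter has driven Cre. The controls are C451Af/f littermates according to the study's methods and wildtype according to the sample labels. The total estimated count was 36095253 to 40498166 per POMC-C451Af/f pool and 37841365 to 48942116 per control pool. Levels are counts per 1000000 counts of the library (CPM), on library sizes scaled with the TMM method, and values by pool are given in the order of pools 1 to 4. Esr1 was counted at 11.6, 12.2, 10 and 10.8 CPM in the POMC-C451Af/f pools and 12.3, 12.8, 11.6 and 16 CPM in the control pools; gene counts do not separate the mutated transcript from the intact one. Control pool 4 was the highest and the groups overlapped, with a log2 fold change of -0.23 and an unadjusted p of 0.0462 in edgeR (adjusted p of 0.878). Pomc was counted at 49.5, 50.2, 35.8 and 30.6 CPM in the POMC-C451Af/f pools and 98.9, 49.7, 50.5 and 50.8 CPM in the control pools. Control pool 1 stood above the other 7 pools, and the log2 fold change was -0.59, with an unadjusted p of 0.0319 in edgeR (adjusted p of 0.878). Actb, a reference for scale, was counted at 681, 677, 661 and 656 CPM in the POMC-C451Af/f pools and 706, 665, 688 and 645 CPM in the control pools.

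Microglia arise from yolk sac progenitors, depend on signaling through the receptor Csf1r, and are set apart from other macrophages by a homeostatic program of surface receptors and transcription factors. They survey the tissue, take up debris and synapses through complement and the Trem2 and Tyrobp receptor complex, and respond to fractalkine from neurons through Cx3cr1. Border macrophages share the myeloid genes and are recognised by scavenger and endocytic receptors such as Mrc1, Cd163 and Lyve1.

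Some libraries stood apart in genes of other tissues. The 6 pituitary genes summed to 223, 31.5, 16.9 and 189 CPM in the POMC-C451Af/f pools and 1450, 95.9, 21.1 and 32.5 CPM in the control pools, with control pool 1 far above the others and Prl as the gene with the most CPM. The 8 midbrain dopaminergic genes summed to 269, 210, 436 and 315 CPM in the POMC-C451Af/f pools and 177, 170, 209 and 228 CPM in the control pools, with the highest sum in POMC-C451Af/f pool 3 and Aldh1a1 as the gene with the most CPM; 8 of the 8 were higher in POMC-C451Af/f pools at an unadjusted p under 0.05 in edgeR and 0 were called. The 8 genes of leptomeningeal fibroblasts, the connective tissue cells of the inner meninges, summed to 116, 231, 92 and 91.5 CPM in the POMC-C451Af/f pools and 219, 120, 253 and 80.7 CPM in the control pools, and Igf2 contributed the most CPM. POMC-C451Af/f pool 2 and control pools 1 and 3 were therefore the pools with the most leptomeningeal transcripts, and all 8 of these genes had their 3 highest levels in those pools. Without these 3 pools, a setting chosen after seeing the data, 9 of the 30 listed genes that were measured did not overlap between genotypes (Aif1, Cx3cr1, Gpr34, Itgam, Laptm5, Mrc1, P2ry12, Sall1 and Spi1), and neither did 17.8% of all tested genes; 2 of the 30, Cx3cr1 and Spi1, had an unadjusted p under 0.05, as did 3.21% of all tested genes, and 0 were called.

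The microglial genes were counted in every pool. Csf1r, the receptor for Csf1 and Il34 on which microglia depend, was counted at 73.2, 72.2, 71.7 and 69.4 CPM in the POMC-C451Af/f pools and 71.2, 67, 69.3 and 70.8 CPM in the control pools. Its 8 pools lay close together and the groups overlapped. Levels of different genes are compared here relative to transcript length; where a gene is said to have the most CPM of a list, this is its share of the counts and not its level relative to length. Ctss, a lysosomal cysteine protease, had 37.1 ± 2.24 CPM per kilobase (SD over 8 pools), followed by the 3 chains of complement C1q, with 33.3 ± 2.35 for C1qa, 29.1 ± 1.83 for C1qb and 26.3 ± 1.36 CPM per kilobase for C1qc. Ctss and C1qa, and likewise C1qa and C1qb, lay within 2 SD of each other. Csf1r stood at 15 ± 0.418, Selplg at 12.7 ± 1.03, Tyrobp at 11.8 ± 1.3 and Laptm5 at 9.65 ± 0.602 CPM per kilobase. The homeostatic markers Tmem119, P2ry12 and Cx3cr1 followed at 7.45 ± 0.289, 7.21 ± 0.517 and 6.9 ± 0.38, within 2 SD of each other. By the mean of the 8 pools, the 4 border macrophage markers had the lowest levels of the 31 genes. They lay between 0.381 ± 0.27 CPM per kilobase for Lyve1 and 0.52 ± 0.224 for Pf4. The pan-leukocyte phosphatase Ptprc, at 0.551 ± 0.0836, was above Pf4 by less than the SD of Pf4. In the control pools the mean of Pf4 (0.616) was above that of Ptprc (0.55). These values divide by the longest protein-coding transcript; with the mean length of the protein-coding transcripts Csf1r stood at 28.9 and Selplg at 31.8 CPM per kilobase, and the 4 border macrophage markers were again the lowest 4.

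**Figure D1:**
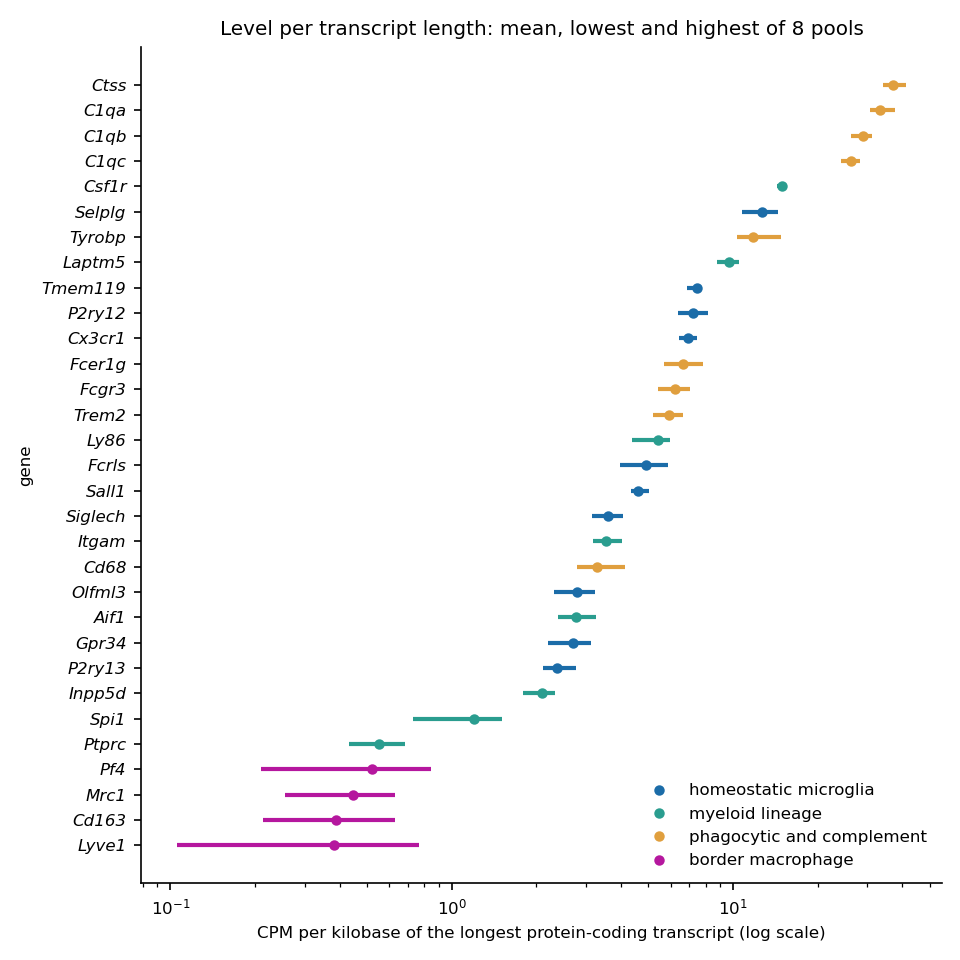
Level of each of the 31 genes in CPM per kilobase of the longest protein-coding transcript, on a log scale; points are means of 8 pools and lines run from the lowest to the highest pool. Ctss (37.1) and the 3 C1q genes lead, and the 4 border macrophage markers have the lowest means and the longest lines.

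The 3 C1q genes lie side by side on chromosome 4, with 3616 bases between C1qb and C1qc and 2851 bases between C1qc and C1qa (GENCODE M21, GRCm38). P2ry13 and P2ry12 lie 5389 bases apart on chromosome 3, Tmem119 and Selplg 18019 bases apart on chromosome 5, and Fcgr3 and Fcer1g 164636 bases apart on chromosome 1. Promoters are shown for C1qb, C1qc and Ctss and for the border macrophage markers Mrc1 and Pf4. Each of them holds the PU box described below, as only 17 of the 27 start sites of the listed genes do. The promoters shown therefore do not represent the list. C1qb, C1qc and Ctss were low in both pools numbered 4 and high in POMC-C451Af/f pools 2 and 3, but their order differed elsewhere. The sequences come from RefSeq (GRCm38.p6), from 250 bases before to 50 bases after the gene's start, in the gene's own direction. Capitals mark the PU box, GAGGAA or its complement TTCCTC on the other strand, the core of the sequence known to be bound by PU.1, the product of Spi1.
C1qb, chr4:136886151-136886450, minus strand: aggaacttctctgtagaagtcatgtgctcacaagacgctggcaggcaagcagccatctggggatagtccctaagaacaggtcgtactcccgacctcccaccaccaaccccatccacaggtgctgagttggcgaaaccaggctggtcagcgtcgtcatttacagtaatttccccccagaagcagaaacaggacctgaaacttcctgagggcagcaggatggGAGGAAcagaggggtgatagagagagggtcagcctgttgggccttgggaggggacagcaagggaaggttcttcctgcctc
C1qc, chr4:136892865-136893164, minus strand: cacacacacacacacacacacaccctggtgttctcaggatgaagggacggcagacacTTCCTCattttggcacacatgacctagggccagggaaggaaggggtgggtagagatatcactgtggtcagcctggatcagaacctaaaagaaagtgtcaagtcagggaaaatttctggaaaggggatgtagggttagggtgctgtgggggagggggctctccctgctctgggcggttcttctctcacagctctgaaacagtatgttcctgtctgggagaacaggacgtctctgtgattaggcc
Ctss, chr3:95526536-95526835, plus strand: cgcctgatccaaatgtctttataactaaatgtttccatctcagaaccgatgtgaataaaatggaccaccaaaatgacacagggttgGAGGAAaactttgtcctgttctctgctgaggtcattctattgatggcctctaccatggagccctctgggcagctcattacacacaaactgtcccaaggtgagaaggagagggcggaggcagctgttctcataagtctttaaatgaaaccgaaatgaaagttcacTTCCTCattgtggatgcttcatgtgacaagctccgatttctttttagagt
Mrc1, chr2:14229164-14229463, plus strand: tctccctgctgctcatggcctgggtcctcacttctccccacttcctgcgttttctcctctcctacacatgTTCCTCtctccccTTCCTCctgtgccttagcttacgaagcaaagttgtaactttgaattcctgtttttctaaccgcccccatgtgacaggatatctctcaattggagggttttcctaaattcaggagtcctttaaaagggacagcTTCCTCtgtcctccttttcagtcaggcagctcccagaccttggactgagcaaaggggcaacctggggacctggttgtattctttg
Pf4, chr5:90772185-90772484, plus strand: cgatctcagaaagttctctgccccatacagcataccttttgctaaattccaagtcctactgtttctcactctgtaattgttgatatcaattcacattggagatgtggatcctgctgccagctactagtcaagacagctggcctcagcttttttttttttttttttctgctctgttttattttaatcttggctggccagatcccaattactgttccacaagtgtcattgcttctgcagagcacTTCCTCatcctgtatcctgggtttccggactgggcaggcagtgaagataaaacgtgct
Of the 31 genes, 23 had a promoter in the table, with 27 start sites. GAGGAA, searched on both strands, was found at 17 of these 27 starts (63.0%) and at 28.3% of all 32851 promoters. The longer GAGGAAGT, which contains GAGGAA, was found at 4 of 27 starts, those of C1qc, Ctss, Inpp5d and Pf4, and at 3.2% of all promoters. TATAAA was found at 4 of 27 starts and at 13.6% of all promoters, and the estrogen response element, GGTCA and TGACC with any 3 bases between them, at 0 of 27 and at 0.07% of all. The promoters of the listed genes held a median of 50.3% G and C, against 52.7% for all promoters, and a median of 5 CpG against 7. These matches describe the letters in the window and say nothing of binding.

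The question put to the counts was whether microglial and border macrophage transcripts differed between the genotypes. In edgeR's quasi-likelihood test over 18637 genes, a gene was called at a false discovery rate of 0.05 with an absolute log2 fold change over 0.5. By this rule 0 of the 31 genes were called, where 4 of all tested genes were (0.0215%), and DESeq2 also called 0 of the 31, with 12 of 32195 genes called; 3 of the 31 had an unadjusted p under 0.05 in DESeq2, as did 2.82% of those genes. The lowest adjusted p among the 31 genes in edgeR was 0.878. At an unadjusted p under 0.05, 4 of the 31 genes were higher in POMC-C451Af/f pools, where 2.7% of all tested genes were, and 0 were lower, where 2.39% were. The 4 genes were Cx3cr1 (p of 0.00468), Laptm5 (0.00999), Fcrls (0.0407) and P2ry12 (0.0499). P2ry12 was no longer under 0.05 with DESeq2 (0.0729), total counts (0.0567), the replicate block (0.0841), no filter (0.0594) or a minimum of 10 counts per pool (0.0545), nor without any single pool other than POMC-C451Af/f pool 2 or control pool 4. Fcrls was no longer under 0.05 without POMC-C451Af/f pool 2 (0.062) or 3 (0.126) or control pool 1 (0.114) or 4 (0.0991). Without POMC-C451Af/f pools 3 and 4 together Fcrls (0.158), P2ry12 (0.348) and Cx3cr1 (0.0511) were not under 0.05, with log2 fold changes of 0.17, 0.07 and 0.09. Without the 3 pools rich in leptomeningeal genes Fcrls (0.139), P2ry12 (0.203) and Laptm5 (0.0911) were not, with log2 fold changes of 0.18, 0.1 and 0.12. With all pools these were 0.21 for Fcrls, 0.13 for P2ry12 and Cx3cr1, and 0.14 for Laptm5. The genotype groups did not overlap in 2 of the 31 genes, Cx3cr1 and Laptm5, both higher in POMC-C451Af/f pools, against 1.34% of all tested genes higher and 1.45% lower; 0 of the 31 were lower without overlap. The median log2 fold change of POMC-C451Af/f over control was 0.06 for the 31 genes and 0.00085 for all tested genes. The count under 0.05 was 9 without POMC-C451Af/f replicate 2 and 2 without POMC-C451Af/f replicate 3, where 9.38% and 3.38% of all tested genes were under 0.05, against 5.1% with all pools. The count of genes without overlap was 1 without POMC-C451Af/f replicate 1, 7 without POMC-C451Af/f replicate 2, 5 without POMC-C451Af/f replicate 4 and 5 without control replicate 4; of all tested genes 5.57%, 8.59%, 5.37% and 6.58% did not overlap in these settings. Of the 31 genes, 23 had a positive and 8 a negative value, where 50.4% of all tested genes had a positive one. In bulk RNA, fewer cells of a type and less RNA per cell cannot be told apart, and this holds for every level given here.

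**Figure D2:**
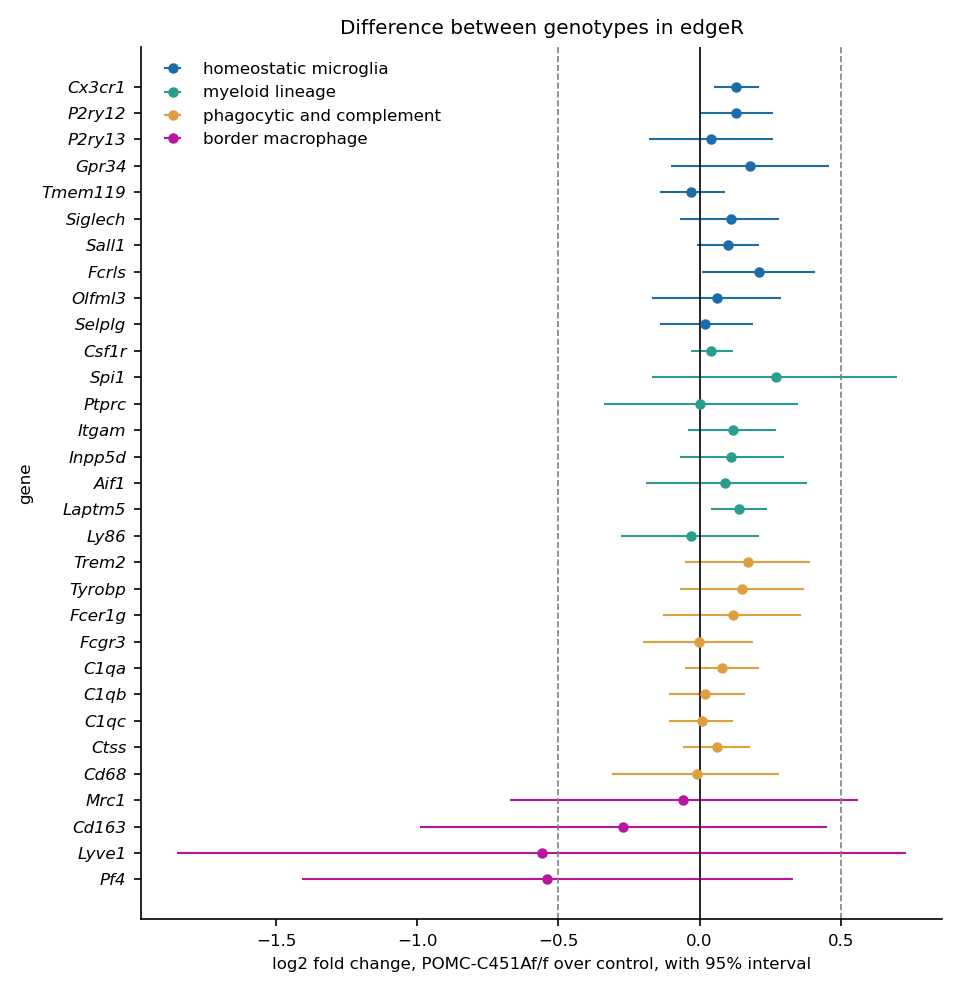
Log2 fold change of POMC-C451Af/f over control for each of the 31 genes, with 95% intervals from edgeR; dashed lines mark the fold change threshold of 0.5 in either direction. The microglial values lie close to 0, and the intervals of the 4 border macrophage markers are the widest, reaching from -1.85 to 0.73 for Lyve1.

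Among the homeostatic genes, Cx3cr1, the receptor for fractalkine, was counted at 31.9, 31.1, 33.6 and 32.8 CPM in the POMC-C451Af/f pools and 30.5, 29.5, 28.8 and 29.5 CPM in the control pools. All 4 POMC-C451Af/f pools lay above all 4 control pools, with a gap from 30.5 to 31.1 CPM. The log2 fold change was 0.13 (standard error 0.0365, 95% interval 0.05 to 0.21), with an adjusted p of 0.878 in edgeR. P2ry12, the receptor for ADP that guides microglial processes to injury, was counted at 17.1, 16.7, 19.1 and 17.8 CPM in the POMC-C451Af/f pools and 16, 16.5, 15 and 17 CPM in the control pools. The groups overlapped, since control pool 4 was above POMC-C451Af/f pool 2, and the log2 fold change was 0.13 (standard error 0.0589). P2ry13, the related ADP receptor beside it on chromosome 3, ranged from 5.35 to 7.01 CPM, with a log2 fold change of 0.04. Fcrls, an Fc receptor-like protein of homeostatic microglia, was counted at 11.4, 11.9, 13.4 and 11.3 CPM in the POMC-C451Af/f pools and 9.03, 11.5, 11.2 and 9.67 CPM in the control pools. Control pool 1 was the lowest and POMC-C451Af/f pool 3 the highest, control pool 2 was above POMC-C451Af/f pools 1 and 4 so that the groups overlapped, and the log2 fold change was 0.21 (standard error 0.0913).

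The transcription factor Sall1, which maintains microglial identity, was counted at 26.2, 22.8, 24.8 and 26.5 CPM in the POMC-C451Af/f pools and 23.2, 23.1, 23.2 and 24.1 CPM in the control pools. POMC-C451Af/f pool 2 was the lowest of all 8 and the other POMC-C451Af/f pools the highest 3, a log2 fold change of 0.1 (standard error 0.0504). Tmem119, a membrane protein used to tell microglia from other macrophages, was counted at 17.4, 16.8, 16.7 and 15.3 CPM in the POMC-C451Af/f pools and 17.4, 16.9, 16.6 and 16.6 CPM in the control pools. It varied by 3.88% over the 8 pools, as little as counting alone gives (3.87%), and its log2 fold change was -0.03 (95% interval -0.14 to 0.09). Gpr34, a receptor for lysophosphatidylserine, ranged from 4.59 to 6.54 CPM, Siglech, a sialic acid-binding lectin, from 7.27 to 9.33, Olfml3, a secreted matrix protein, from 12.7 to 17.7, and Selplg, the ligand of P-selectin, from 20 to 26.9 CPM. The genotype groups of these 4 genes overlapped, with log2 fold changes of 0.18, 0.11, 0.06 and 0.02. Summed over the 10 homeostatic genes the level was 166, 162, 168 and 158 CPM in the POMC-C451Af/f pools and 152, 154, 155 and 154 CPM in the control pools. Every POMC-C451Af/f sum was above every control sum, with means of 164 and 154 CPM, and the median log2 fold change of the 10 genes was 0.1. This difference in sums was not tested. By single gene 1 of the 10, Cx3cr1, was higher without overlap, as were 1.34% of all tested genes. The sums of the myeloid lineage genes overlapped (136 CPM in POMC-C451Af/f pool 4, 137 in control pool 4), as did those of the 28 other microglial genes. POMC-C451Af/f pool 3, with the highest homeostatic sum, also had the highest midbrain, oligodendrocyte and erythroid sums.

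Among the myeloid lineage genes, Laptm5, a lysosomal protein of blood cells, was counted at 27.3, 26.9, 25.9 and 25 CPM in the POMC-C451Af/f pools and 24.8, 23.4, 22.8 and 24.6 CPM in the control pools. The lowest POMC-C451Af/f pool (25) and the highest control pool (24.8) almost touched, and the log2 fold change was 0.14 (standard error 0.044; adjusted p of 0.878 in edgeR). With total counts in place of TMM the groups of Laptm5 overlapped. For Csf1r, the log2 fold change was 0.04 (95% interval -0.03 to 0.12) and the groups overlapped. Its spread over the pools, 2.78%, was the smallest of the 31 genes. Spi1, which encodes the lineage factor PU.1, was low and uneven, at 2.69, 2.36, 3.03 and 2.61 CPM in the POMC-C451Af/f pools and 3.08, 2.25, 2.09 and 1.48 CPM in the control pools. Control pool 1 was the highest and control pool 4 the lowest of all pools, so that the 4 control pools spanned the whole POMC-C451Af/f group. The log2 fold change of 0.27 (standard error 0.196) was the largest of the 27 microglial genes. It was 0.46 without control replicate 1, where the groups did not overlap, and 0.12 without control replicate 4. Without the 3 pools rich in leptomeningeal genes it was 0.57, also without overlap (adjusted p of 1 in edgeR). Itgam, the complement receptor chain CD11b, ranged from 14.9 to 18.8 CPM, Inpp5d, a lipid phosphatase that dampens receptor signals, from 8.87 to 11.5, Ly86, a partner of a toll-like receptor homolog, from 4.95 to 6.77, Ptprc (CD45) from 2.19 to 3.48, and Aif1, the gene of the histological marker Iba1, from 2.09 to 2.85 CPM. The groups of these 5 genes overlapped, and their log2 fold changes were 0.12, 0.11, -0.03, 0.0031 and 0.09.

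Itgam shares 3454 bases at 99.9% identity with the annotated gene Gm49368 on the same strand, to which at most 5 counts were assigned in any pool. Fcgr3 shares 512 bases at 96.3% identity with the inhibitory receptor gene Fcgr2b, counted at 3.68, 3.36, 3.2 and 2.86 CPM in the POMC-C451Af/f pools and 4.02, 3.12, 4.48 and 3.76 CPM in the control pools, so the division of reads between these neighbours is uncertain. Olfml3 and Cd163 carry short stretches of up to 188 and 131 bases that occur in other transcripts at 90% identity or more. The other 27 genes shared no stretch of 100 bases at that identity with another annotated transcript on the same strand.

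For all 9 genes of phagocytosis and complement the genotype groups overlapped. C1qa was counted at 34.5, 39.2, 36.6 and 31.9 CPM in the POMC-C451Af/f pools and 33.7, 33.6, 35.2 and 31.8 CPM in the control pools. C1qb was counted at 31.4, 33.3, 34.1 and 28.8 CPM in the POMC-C451Af/f pools and 31.6, 33.1, 32.2 and 28.7 CPM in the control pools. C1qc was counted at 30.5, 34, 33.1 and 29.3 CPM in the POMC-C451Af/f pools and 33.1, 31.1, 31.6 and 30.2 CPM in the control pools. The 3 chains form the recognition molecule of the classical complement pathway, and all 3 were low in POMC-C451Af/f pool 4 and control pool 4 and high in POMC-C451Af/f pools 2 and 3. Their log2 fold changes were 0.08, 0.02 and 0.009, with 95% intervals that together run from -0.11 to 0.21. Ctss followed the same pools, at 50.3, 53, 55.7 and 46.8 CPM in the POMC-C451Af/f pools and 49.8, 49.3, 51.2 and 46.5 CPM in the control pools, with a log2 fold change of 0.06 (95% interval -0.06 to 0.18). Control pool 4 was the lowest pool for 5 of the 9 genes of this group, and POMC-C451Af/f pool 4 for 2. Summed over the 9 genes the level was 179, 193, 191 and 165 CPM in the POMC-C451Af/f pools and 177, 179, 179 and 166 CPM in the control pools, with overlapping groups and the 2 pools numbered 4 lowest.

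Trem2, the lipid-sensing receptor of phagocytic microglia, was counted at 7.26, 7.09, 7.22 and 5.67 CPM in the POMC-C451Af/f pools and 5.88, 6.51, 6.16 and 5.67 CPM in the control pools. POMC-C451Af/f pools 1 to 3 were the highest 3 of the 8, whereas POMC-C451Af/f pool 4 lay with the lowest control pool, and the log2 fold change was 0.17 (standard error 0.0981). Its signaling adaptor Tyrobp was counted at 7.06, 8.81, 7.16 and 6.73 CPM in the POMC-C451Af/f pools and 7.17, 6.67, 6.18 and 6.78 CPM in the control pools, highest in POMC-C451Af/f pool 2, with a log2 fold change of 0.15 (standard error 0.0989). Fcer1g, the adaptor shared by activating Fc receptors, ranged from 3.89 to 5.36 CPM, Fcgr3, an activating IgG receptor, from 7.27 to 9.51, and the endosomal glycoprotein Cd68 from 3.44 to 5.09 CPM. Their groups overlapped, with log2 fold changes of 0.12, -0.0035 and -0.01.

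**Figure D3:**
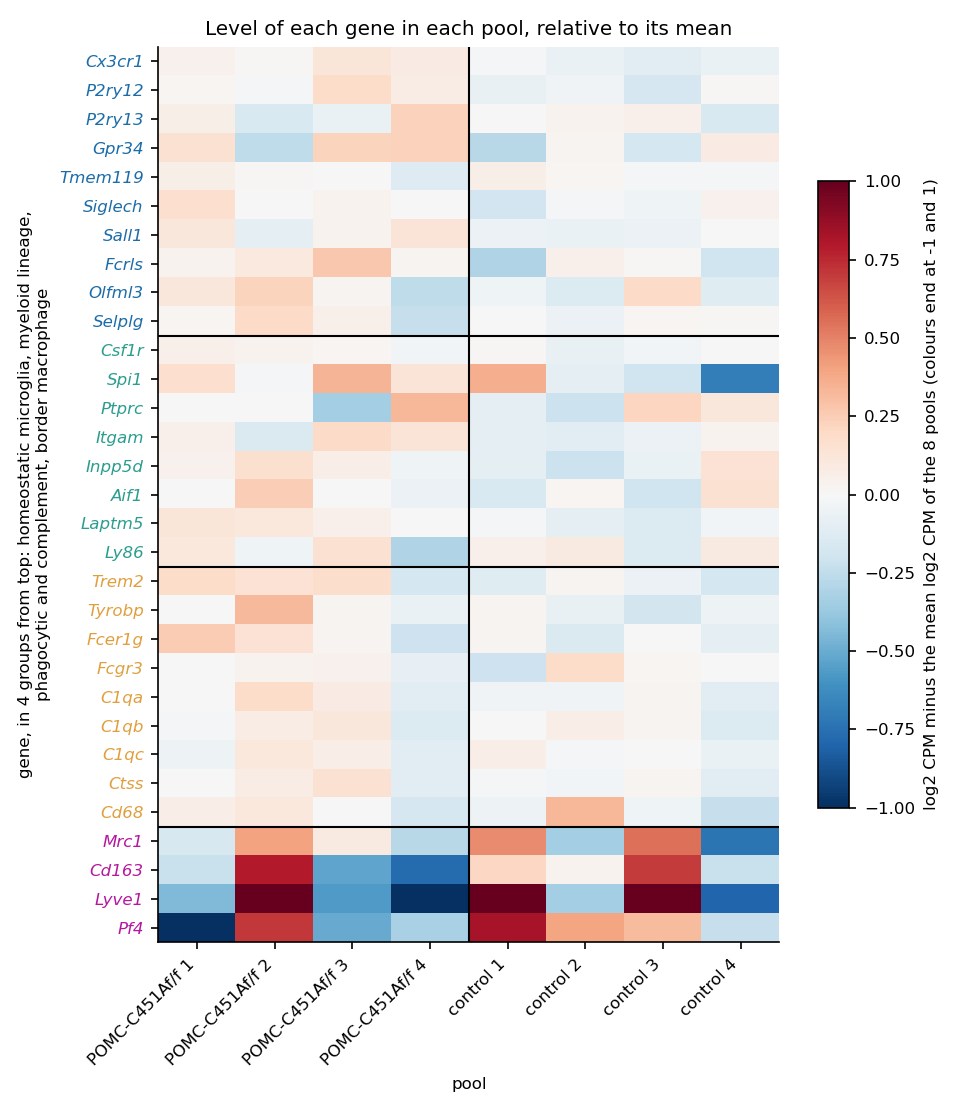
Level of each of the 31 genes in each of the 8 pools, as log2 CPM minus the gene's mean over the pools; colours end at -1 and 1, and lines divide the 4 gene groups and the genotypes. The border macrophage markers at the bottom vary most, and Mrc1, Cd163 and Lyve1 are highest in POMC-C451Af/f pool 2 and control pools 1 and 3 (2.04, 1.84 and 2.21 CPM for Lyve1), whereas Pf4 is higher in control pool 2 than in control pool 3.

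The 4 border macrophage markers varied more from pool to pool than any of the 27 microglial genes. Mrc1, the mannose receptor, was counted at 2.05, 3.04, 2.44 and 1.89 CPM in the POMC-C451Af/f pools and 3.18, 1.81, 3.37 and 1.38 CPM in the control pools. Cd163, the scavenger receptor for hemoglobin and haptoglobin, was counted at 1.38, 2.79, 1.12 and 0.946 CPM in the POMC-C451Af/f pools and 1.86, 1.65, 2.62 and 1.38 CPM in the control pools. Lyve1, a hyaluronan receptor of perivascular and meningeal macrophages and of lymphatic endothelium, was counted at 0.642, 2.04, 0.59 and 0.306 CPM in the POMC-C451Af/f pools and 1.84, 0.688, 2.21 and 0.503 CPM in the control pools. For each of these 3 genes the 3 highest pools were POMC-C451Af/f pool 2 and control pools 1 and 3, which cross the genotypes. Pf4, a chemokine of platelets and border macrophages, was counted at 0.123, 0.457, 0.197 and 0.223 CPM in the POMC-C451Af/f pools and 0.496, 0.367, 0.348 and 0.238 CPM in the control pools. It was highest in control pool 1 and POMC-C451Af/f pool 2, but rests on only 5 to 20 counts per pool. The highest pool was 2.45 times the lowest for Mrc1, 2.95 times for Cd163, 7.22 times for Lyve1 and 4.02 times for Pf4; for Csf1r it was 1.09 times and for Cx3cr1 1.17 times.

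Between the genotypes, all 4 border macrophage groups overlapped. The log2 fold changes were -0.06 for Mrc1 (standard error 0.276), -0.27 for Cd163 (0.326), -0.56 for Lyve1 (0.582) and -0.54 for Pf4 (0.394), with adjusted p values from 0.878 to 0.984 in edgeR. Leaving out 1 pool at a time moved them to between -0.25 and 0.15 for Mrc1, -0.71 and -0.06 for Cd163, -1.36 and -0.17 for Lyve1, and -1.01 and -0.31 for Pf4. The lowest value came without POMC-C451Af/f replicate 2 for Cd163, Lyve1 and Pf4 and without control replicate 4 for Mrc1, and the highest came without control replicate 3 for Mrc1, Cd163 and Lyve1 and without POMC-C451Af/f replicate 1 for Pf4. The median over the 4 was -0.41, and it depended on single pools. It was -0.26 without POMC-C451Af/f replicate 1, -0.19 without POMC-C451Af/f replicate 4 and -0.12 without control replicate 3. Without POMC-C451Af/f replicate 2 it was -0.86, and Cd163, Lyve1 and Pf4 then had an unadjusted p under 0.05, with 9 of the 31 genes in all under 0.05 (6 higher, 3 lower) and 9.38% of all tested genes. Without POMC-C451Af/f replicates 3 and 4, the pools with the highest midbrain sums, the median was 0.03. Without the 3 pools highest in leptomeningeal genes the median was -0.22, with log2 fold changes of 0.41 for Mrc1, -0.39 for Cd163 and -0.22 for Lyve1, and Pf4 did not pass the filter.

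The level of the border macrophage markers followed the leptomeningeal fibroblast genes from pool to pool. The 4 markers summed to 4.2, 8.33, 4.35 and 3.37 CPM in the POMC-C451Af/f pools and 7.37, 4.52, 8.55 and 3.5 CPM in the control pools. The 3 pools above 7 CPM were the 3 whose leptomeningeal sums were above 200 CPM, and in the other 5 pools the 4 markers summed to 3.37 to 4.52 and the leptomeningeal genes to 80.7 to 120 CPM. Because the pools fall into 2 separate sets in this measure, no correlation over the 8 pools is given. Of all tested genes, 5.09% had their 3 highest levels in these 3 pools, against 3 of the 4 border macrophage markers and 0 of the other 27 genes of the list. The leptomeningeal genes themselves chose these 3 pools and are no part of this comparison. The same held for 4 of the 8 hypothalamic neuron genes (Avp, Hcrt, Oxt and Pmch), 5 of the 16 tested genes of disease-associated microglia (Apoe, Cd63, Cd74, Ctsz and Spp1) and 2 of the 6 choroid plexus genes (Kcnj13 and Kl), named because these values had been seen. Whether the amount of meninges in the libraries bears on these values was not tested.

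**Figure D4:**
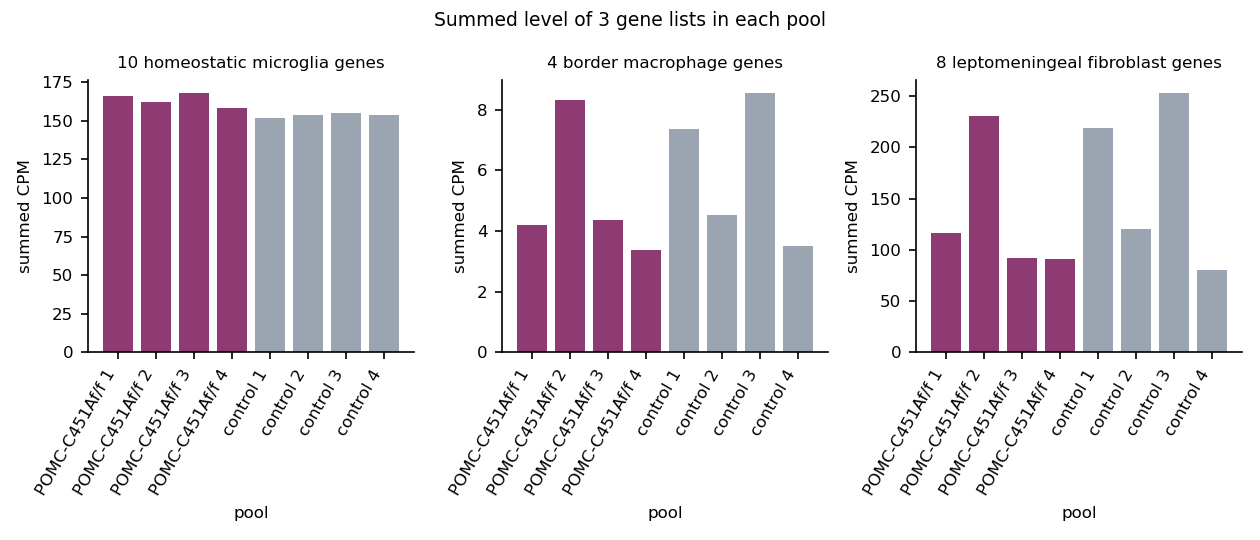
Summed level in CPM of 10 homeostatic microglia genes, 4 border macrophage genes and 8 leptomeningeal fibroblast genes in each pool; bars start at 0, with POMC-C451Af/f pools in purple and control pools in grey. The homeostatic sums lie between 152 and 168 in all pools, whereas the border macrophage and leptomeningeal sums are high in POMC-C451Af/f pool 2 and control pools 1 and 3.

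The spread over the 8 pools put numbers to this contrast. The coefficient of variation had a median of 8.37% over the 27 microglial genes, from 2.78% for Csf1r to 21.5% for Spi1, where tested genes with a mean of 2 to 100 CPM had a median of 6.4%. It was 30.5% for Mrc1, 39.2% for Cd163, 71.0% for Lyve1 and 43.0% for Pf4, where tested genes with a mean of 0.2 to 3 CPM had a median of 23.1%. Counting alone gives 10.2%, 11.9%, 14.8% and 28.4% for these 4 genes, so that the spread of Lyve1 was far above its counting error and that of Pf4 much less so. The summed level varied by 3.78% for the homeostatic genes, 3.71% for the myeloid lineage genes, 5.72% for the genes of phagocytosis and complement and 39.5% for the border macrophage markers.

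**Figure D5:**
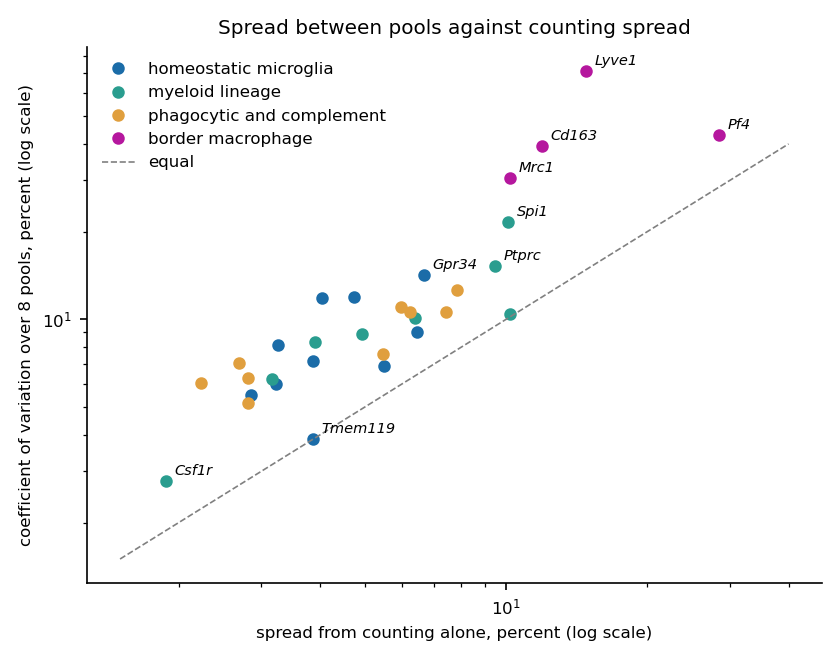
Coefficient of variation of each gene over the 8 pools against the spread expected from counting alone, both in percent on log scales; the dashed line marks equality. Tmem119 lies on the line (3.88% against 3.87%), and Lyve1 is highest at 71.0%.

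Other genes of border macrophages showed the same pools. Of 12 such genes 9 were tested, and 6 of the 9 (Cbr2, Dab2, F13a1, Maf, Ms4a6c and Stab1, named because these values had been seen) had their 3 highest levels in POMC-C451Af/f pool 2 and control pools 1 and 3. The transglutaminase gene F13a1 was counted at 1.51, 2.9, 1.52 and 1.06 CPM in the POMC-C451Af/f pools and 2.68, 1.15, 2.78 and 0.927 CPM in the control pools. Dab2, an endocytic adaptor also expressed by other cells, had the most CPM of the list, not scaled to length, at 18.1 to 25.8 CPM. Ms4a7, Cd209f and Folr2 were near 0, with at most 12 counts in any pool. By genotype, 0 of the 9 genes were called, 0 were higher and 1 was lower at an unadjusted p under 0.05. This was Cd38, the next in CPM, an ectoenzyme that consumes NAD and is expressed by many cell types, at 17.1, 17.3, 17.9 and 18.2 CPM in the POMC-C451Af/f pools and 21.2, 18.9, 21.4 and 21.4 CPM in the control pools. All POMC-C451Af/f pools lay below all control pools, with log2 fold change -0.23 and a standard error of 0.0515 (adjusted p of 0.74 in edgeR). Of all tested genes, 2.39% were lower at an unadjusted p under 0.05 in edgeR and 1.45% were lower without overlap.

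Lymphatic endothelium and platelets, which are known to express Lyve1 and Pf4, and blood leukocytes were followed through their own markers. Of 4 lymphatic endothelial genes, Ccl21a had 0 counts in 7 of 8 pools, while the other 3, which other brain cells also express, passed the filter; the 4 genes summed to 43.8, 44.7, 56.5 and 49.8 CPM in the POMC-C451Af/f pools and 45.9, 43.2, 45 and 43 CPM in the control pools, with the most CPM from Prox1, and 0 were called. Of 5 platelet genes, Ppbp had 0 counts in 5 of 8 pools and Treml1 at most 8 counts, Itga2b had the most CPM, at 3.28 to 4.07 CPM, and the sum was 4.12 to 4.84 CPM, highest in POMC-C451Af/f pool 2. The 6 neutrophil genes summed to at most 0.73 CPM and the 9 lymphocyte genes to at most 1.38 CPM. The genes with the most CPM were S100a9 and Cd79a, at means of 0.16 and 0.285 CPM, and Retnlg had 0 counts in 7 of 8 pools. The 5 monocyte genes summed to 2.02, 2.15, 2.22 and 2.06 CPM in the POMC-C451Af/f pools and 3.03, 2.04, 2.45 and 2.62 CPM in the control pools, with the most CPM from Ly6c2 at a mean of 1.44 CPM and Chil3 at 0 in 4 of 8 pools. The 4 border macrophage markers summed to 3.37 to 8.55 CPM. The sums are not scaled to length, and those of platelets and monocytes rest mostly on Itga2b and Ly6c2. They are therefore not compared with each other. The part of lymphatic endothelium, platelets and leukocytes in the levels of the border macrophage markers was not tested.

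Marker sums of other brain cells and of blood are set beside the microglial genes. The 5 erythroid genes, with the most CPM from Hbb-bs, summed to 329, 338, 545 and 177 CPM in the POMC-C451Af/f pools and 299, 229, 139 and 201 CPM in the control pools, highest in POMC-C451Af/f pool 3. The 6 endothelial genes, with the most CPM from Flt1, summed to 212 to 241 CPM, the 6 astrocyte genes, with the most CPM from Slc1a2, to 2376 to 2515, and the 6 choroid plexus genes, with the most CPM from Clic6, to 32.9 to 41.2 CPM. The 6 oligodendrocyte genes, with the most CPM from Mbp, summed to 5672, 5572, 6885 and 6293 CPM in the POMC-C451Af/f pools and 4799, 5660, 5726 and 5688 CPM in the control pools, with the lowest sum in control pool 1 and the highest in POMC-C451Af/f pool 3. The 6 neuronal genes, with the most CPM from Snap25, summed to 3507 to 4139 CPM, and the 8 hypothalamic neuron genes, with the most CPM from Pmch, to 1067, 1240, 733 and 924 CPM in the POMC-C451Af/f pools and 1498, 1043, 1263 and 1006 CPM in the control pools. The summed homeostatic microglia genes spanned 1.1 times from lowest to highest pool, against 1.06 times for astrocytes, 1.14 times for endothelial cells, 1.18 times for neurons, 1.43 times for oligodendrocytes, 2.04 times for hypothalamic neurons and 85.9 times for pituitary genes. At an unadjusted p under 0.05 in edgeR, 2 of the 5 erythroid, 3 of the 6 oligodendrocyte, 2 of the 6 astrocyte and 1 of the 3 tested platelet genes were higher in POMC-C451Af/f pools, where 2.7% of all tested genes were. By the same measure 1 of the 8 hypothalamic neuron and 1 of the 6 astrocyte genes were lower, where 2.39% of all tested genes were. The hypothalamic neuron gene was Pomc, at 98.9 CPM in control pool 1, the pool with the highest pituitary sum (1450 CPM). Whether the pituitary transcripts in that pool bear on Pomc was not tested. Of these lists' genes 0 were called. Whether differences in dissected tissue bear on the small differences in microglial genes was not tested.

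The partners of the microglial receptors come mostly from other cells. Of 13 genes for ligands and partners 12 were tested, and 0 were called or had an unadjusted p under 0.05 in edgeR, with a median log2 fold change of -0.0076. Apoe, an apolipoprotein bound by Trem2, and Cx3cl1, the fractalkine bound by Cx3cr1, had the most CPM. Cx3cl1 was counted at 361, 330, 364 and 368 CPM in the POMC-C451Af/f pools and 327, 372, 341 and 335 CPM in the control pools, with control pool 2 the highest of all, overlapping groups and a log2 fold change of 0.05. The Csf1r ligand Csf1 ranged from 32.9 to 37.2 CPM, with a log2 fold change of -0.03. It had its 3 highest levels in the 3 pools rich in leptomeningeal genes.

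Of 28 other microglial genes all 28 were tested, 0 were called, and 0 had an unadjusted p under 0.05; the median log2 fold change was 0.03. Rgs10, a regulator of G protein signaling also expressed by neurons, was counted at 39.5, 38.3, 34.3 and 39.2 CPM in the POMC-C451Af/f pools and 40.1, 37.8, 40.1 and 40.3 CPM in the control pools, with overlapping groups and a log2 fold change of -0.06 (standard error 0.0485).

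Of 14 other complement genes all 14 were tested and 0 were called. C4b, which acts downstream of C1q, was the 1 gene under an unadjusted p of 0.05 in edgeR, where 2.39% of all tested genes were lower. It was counted at 42.1, 44.7, 36.3 and 43.4 CPM in the POMC-C451Af/f pools and 48.5, 44.4, 47.9 and 49.8 CPM in the control pools, with the 2 groups overlapping at POMC-C451Af/f pool 2 and control pool 2, and log2 fold change -0.19 with a standard error of 0.063 (adjusted p of 0.878 in edgeR). Cd59a, an inhibitor of the terminal complex and the next in CPM, ranged from 30.1 to 35.0 CPM with a log2 fold change of -0.04. C1s1, C2 and Serping1 had their 3 highest levels in the 3 pools rich in leptomeningeal genes, and are named because these values had been seen.

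Of 19 genes of the disease-associated state of microglia 16 were tested and 0 were called. Lpl, a lipase also made by neurons, was the 1 gene under an unadjusted p of 0.05, at 5.8, 5.24, 6.32 and 5.03 CPM in the POMC-C451Af/f pools and 4.34, 4.95, 4.62 and 4.24 CPM in the control pools. Its groups did not overlap, with log2 fold change 0.3 and a standard error of 0.101 (adjusted p of 0.878 in edgeR). Of all tested genes, 2.7% were higher at an unadjusted p under 0.05 in edgeR and 1.34% were higher without overlap. Apoe and Ctsb had the most CPM of the list, with log2 fold changes of -0.05 and -0.00045. The 3 genes of the list that did not pass the filter were Cst7 and Ccl4, with at most 3 counts in any pool, and Ccl3, with at most 12. Of 12 inflammatory cytokines and effectors 7 were tested, and 0 were called or had an unadjusted p under 0.05. Il1b, Tnf and Il6 had at most 4 counts in any pool, Ccl2 at most 11 and Cxcl10 at most 19; these 5 genes did not pass the filter and were not tested. Nfkbia and Il18 had the most CPM of that list, at 20.1 to 30.7 and 11.5 to 13.1 CPM.

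The genes outside the list whose log2 CPM ran most like the mean of the 27 microglial genes over the 8 pools were Fah, Amph, Tll1, Asf1b, Cox5a, Dpp9, Mpi, Nfs1, Lpl and Snx8, with Pearson's r from 0.912 to 0.943. These r are the highest among the tested genes outside the list and describe a likeness over 8 pools. Fah, an enzyme of tyrosine breakdown, was counted at 35.1, 32.7, 34.2 and 30.0 CPM in the POMC-C451Af/f pools and 25.5, 27, 27.4 and 25.7 CPM in the control pools. The 10 genes had positive log2 fold changes, from 0.06 to 0.74, and of them Lpl alone was in a list of microglial genes used here. For the mean of the 4 border macrophage markers, the 10 genes ranked first by the same measure were Ogn, Serpind1, Laptm4a, Cilp2, Mpzl2, Adamts10, Aebp1, Csf1, Bmp7 and Slc22a8. Mpzl2 was counted at 1.51, 4.54, 0.983 and 0.89 CPM in the POMC-C451Af/f pools and 4.19, 1.47, 4.07 and 0.927 CPM in the control pools. Slc22a8, an organic anion transporter, was counted at 12.9, 22.9, 13.8 and 11.9 CPM in the POMC-C451Af/f pools and 20.3, 13.9, 22.1 and 10.4 CPM in the control pools. Mpzl2 and Slc22a8 were high in the 3 pools rich in leptomeningeal genes. The ranking on the border macrophage mean selects for this, so it adds no support.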

How the data were processed

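Hypothalamus RNA of 2 female mice was pooled per library, with 4 libraries per genotype. The authors made the deposited estimated counts with Salmon 1.10 on GENCODE vM32 and summed them to genes with tximport, without scaling between pools. The authors' own comparison, which holds log2 fold changes, standard errors, statistics, p and adjusted p, was not used here. The counts were rounded and tested with edgeR 4.0.16 (R 4.3.3): filterByExpr (minimum count 10), TMM, the quasi-likelihood F-test with genotype as the only term, and Benjamini-Hochberg adjustment over 18637 genes. Standard errors are the absolute log2 fold change over the square root of F, and 95% intervals use the t distribution with the fit's degrees of freedom. Cx3cr1 and Laptm5 were also put through a two-sided exact permutation test over pools on log2(CPM + 0.5); they were chosen because their groups do not overlap, which fixes its p, so the test adds no evidence. Alternatives used DESeq2 1.42.0, other scalings and filters, the replicate number as a block, and left-out pools. Replicate pools differ by more than counting error, and the p values measure differences against that spread.

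The 31 members and all gene lists were chosen with earlier results of these data known. Named genes were the 31 members, the 2 genes of each pathway list with the highest mean CPM, not scaled to length, and its genes with an unadjusted p under 0.05, the gene with the highest mean CPM and the near-absent genes of each list of another cell type, the 10 genes most like each of 2 member means, and Esr1, Pomc and Actb; other names are marked as chosen after values were seen, and Gm49368 and Fcgr2b are named for shared sequence. Some genes that the rule takes are not reported here. Lengths and positions come from GENCODE M21 (GRCm38). Transcripts were compared with blastn 2.17.0 on the same strand, at 90% identity or more over 100 bases or more. Promoters come from RefSeq. The fit was also tested on simulated data. Python 3.11.15, pandas 2.3.3, numpy 2.4.6, scipy 1.17.1 and matplotlib 3.10.9 were used.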

Additional observations from a re-analysis of the deposited data

Results flagged for a closer look

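In 112 groups of 4 pools, the highest or lowest pool was compared with its nearest neighbour, and 6 groups had a gap that took up more of their whole range than Dixon's critical value at 95% allows. Chance gives about 1 in 20 such groups. Sall1 in control pool 4 was 24.1 CPM, above the other control pools at 23.1 to 23.2. Aif1 in POMC-C451Af/f pool 2 was 2.85 CPM, above the other pools of that genotype at 2.31 to 2.39. Trem2 in POMC-C451Af/f pool 4 was 5.67 CPM, below the other pools of that genotype at 7.09 to 7.26. The 9 genes of phagocytosis and complement summed to 166 CPM in control pool 4, below the other control pools at 177 to 179. The 6 pituitary genes summed to 1450 CPM in control pool 1, above the other control pools at 21.1 to 95.9. The 6 oligodendrocyte genes summed to 4799 CPM in the same pool, below the other control pools at 5660 to 5726.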

How the results depend on the processing

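Of 494 log2 fold changes of the 31 genes under an alternative, 454 kept their direction, 40 in 14 genes took the other, and 0 were called; the lowest adjusted p was 0.45. Without a fold change threshold 0 of the 31 genes were called as well. The causes of the differences below were not tested, beyond the fewer pools of some settings.

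Leaving out 1 pool at a time gave 4 to 5 called genes, 0 called members, 2 to 9 members with an unadjusted p under 0.05 and 1 to 7 members without overlap. Of all tested genes, 3.37% to 9.38% had an unadjusted p under 0.05 in edgeR and 4.61% to 8.59% did not overlap in these settings. The medians ran from 0.04 to 0.1 for all members, 0.07 to 0.13 for homeostatic, 0.06 to 0.13 for myeloid, 0.02 to 0.11 for phagocytic and -0.86 to -0.12 for border genes. Log2 fold changes ran from -0.03 to 0.09 for P2ry13, -0.05 to 0.0087 for Tmem119, -0.01 to 0.14 for Olfml3, -0.05 to 0.1 for Selplg, -0.12 to 0.1 for Ptprc, -0.09 to 0.05 for Ly86, -0.07 to 0.06 for Fcgr3, -0.02 to 0.07 for C1qb, -0.03 to 0.05 for C1qc, -0.09 to 0.11 for Cd68, -0.25 to 0.15 for Mrc1, -0.71 to -0.06 for Cd163, -1.36 to -0.17 for Lyve1, -1.01 to -0.31 for Pf4 and 0.12 to 0.46 for Spi1. The other members kept their direction, from 0.11 to 0.15 for Cx3cr1, 0.09 to 0.15 for P2ry12, 0.12 to 0.28 for Gpr34, 0.06 to 0.14 for Siglech, 0.07 to 0.14 for Sall1, 0.15 to 0.26 for Fcrls, 0.02 to 0.06 for Csf1r, 0.07 to 0.18 for Itgam, 0.06 to 0.18 for Inpp5d, 0.02 to 0.16 for Aif1, 0.12 to 0.16 for Laptm5, 0.14 to 0.25 for Trem2, 0.06 to 0.2 for Tyrobp, 0.04 to 0.2 for Fcer1g, 0.03 to 0.13 for C1qa and 0.02 to 0.11 for Ctss. The exact p, 0.0286 with all pools by the choice of genes without overlap, ran from 0.0286 to 0.0571 for Cx3cr1 and for Laptm5.

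DESeq2 called 12 of all genes, and the filter of at least 10 counts in every pool gave 2. With total counts 1 member had no overlap, as did 2.75% of all tested genes. The exact p of Laptm5 was then 0.0571, and Ptprc had a log2 fold change of -0.0054. Without a filter that of Ptprc was -0.0015. A block for the pools' replicate number gave 2 called genes, and log2 fold changes were -0.0032 for Ptprc, 0.0023 for Fcgr3 and 0.0014 for Mrc1. The deviations of the pools that share a number correlated at 0.14, -0.18, -0.11 and 0.24, and pools of equal number are not pairs.

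Without POMC-C451Af/f replicates 3 and 4, 7 genes were called, 2 members (Laptm5 and Trem2; 3.04% of all tested genes) had an unadjusted p under 0.05, 5 had no overlap (11.1% of all tested genes), the p of Cx3cr1 was 0.0511, and the border median was 0.03. Log2 fold changes were then -0.03 for P2ry13, 0.02 for Tmem119, -0.01 for Ptprc, 0.01 for Ly86, 0.02 for Fcgr3, 0.07 for Cd68, 0.05 for Mrc1, 0.14 for Cd163 and 0.01 for Lyve1. Among members that kept their direction, the value fell to 0.05 for Gpr34, 0.02 for Itgam and 0.07 for P2ry12. It rose to 0.19 for Olfml3, 0.12 for Selplg, 0.17 for Aif1 and 0.25 for Tyrobp and Fcer1g. The exact p of Cx3cr1 and Laptm5 was 0.0667, the smallest that 4 pools against 2 allow. Leaving out the 3 pools high in leptomeningeal genes was chosen after seeing the data. It gave 2 members with an unadjusted p under 0.05, 9 of 30 without overlap (17.8% of all tested genes), a myeloid median of 0.06, and log2 fold changes of -0.03 for Selplg, -0.11 for Aif1, 0.41 for Mrc1 and 0.57 for Spi1. The exact p was 0.1 for Cx3cr1, the smallest that 3 pools against 2 allow, and 0.2 for Laptm5. With the mean transcript length 15 of the levels per kilobase moved by over 1 SD. For Pf4, with 5 to 20 counts per pool, counting alone gives a spread of 28.4%.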
